A study of Rattus norvegicus with 84 samples.

Results

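Prox1, C1ql2, C1ql3, Dsp, Tdo2 and Stxbp6 are 6 genes known as markers of the granule cells of the dentate gyrus (DG). They were taken by gene symbol, for that role, with earlier results of these data known. Of the 6 genes, 5 were measured in each subregion, among 15374 genes listed for the DG, 15553 for CA1 and 15706 for CA3, and Tdo2, the tryptophan-degrading enzyme, was not analysed here. The 84 RNA-seq libraries came from 28 rats of the inbred F344 strain, all male, aged 12 months (16 rats, called middle-age in the study) or 5 months (12 rats, called young). Each rat gave 1 library from the DG, 1 from CA1 and 1 from CA3, dissected from a single hemisphere, and the labels name no treatment in either age group. Each library holds the whole dissected subregion, so in every comparison fewer granule cells and less RNA per granule cell cannot be told apart.

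The DG is the entry stage of the hippocampal circuit. Its granule cells receive cortical input and send their axons, the mossy fibres, to the pyramidal cells of CA3. In mouse, the homeobox factor Prox1 sets granule cell fate and maintains it against a CA3 fate, while C1ql2 and C1ql3 are secreted C1q-like proteins that mossy fibres release and that link presynaptic neurexin to postsynaptic kainate receptors. Dsp encodes desmoplakin, which ties desmosomal junctions to intermediate filaments, and Stxbp6 encodes amisyn, a syntaxin-binding protein that restrains vesicle fusion.

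Of the 5 measured genes, 4 changed with age in the DG, C1ql2 and C1ql3 downward and Dsp and Stxbp6 upward. The sequences upstream of these 4 genes are shown so that the pair that fell and the pair that rose can be set side by side. They are the 250 bases before each annotated start in RefSeq's GRCr8 assembly, which is not the rn6 build named in the submitters' processing notes, and RefSeq's table had an entry for each of these 4. Where a window lies depends on the annotated start, which was not checked against the reads. Capitals mark an E-box (CANNTG, the motif of basic helix-loop-helix factors such as Neurod2). C1ql2 is at chr13:34023652-34023901 on the plus strand, C1ql3 at chr17:81038245-81038494 on the minus strand, Dsp at chr17:26877122-26877371 on the minus strand and Stxbp6 at chr6:67884339-67884588 on the minus strand.
C1ql2: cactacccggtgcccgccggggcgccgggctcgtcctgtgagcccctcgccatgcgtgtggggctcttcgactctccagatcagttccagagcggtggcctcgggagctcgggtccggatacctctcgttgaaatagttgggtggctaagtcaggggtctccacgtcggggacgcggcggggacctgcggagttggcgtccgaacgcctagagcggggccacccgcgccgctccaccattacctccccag
C1ql3: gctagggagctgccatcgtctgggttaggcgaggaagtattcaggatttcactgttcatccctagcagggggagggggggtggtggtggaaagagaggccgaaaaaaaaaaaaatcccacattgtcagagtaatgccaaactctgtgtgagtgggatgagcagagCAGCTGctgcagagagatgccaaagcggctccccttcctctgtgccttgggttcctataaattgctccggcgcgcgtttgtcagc
Dsp: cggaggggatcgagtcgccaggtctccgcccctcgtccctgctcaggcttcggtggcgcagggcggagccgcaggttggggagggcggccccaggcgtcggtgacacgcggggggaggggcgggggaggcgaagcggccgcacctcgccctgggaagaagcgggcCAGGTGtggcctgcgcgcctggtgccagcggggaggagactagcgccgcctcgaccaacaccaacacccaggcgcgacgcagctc
Stxbp6: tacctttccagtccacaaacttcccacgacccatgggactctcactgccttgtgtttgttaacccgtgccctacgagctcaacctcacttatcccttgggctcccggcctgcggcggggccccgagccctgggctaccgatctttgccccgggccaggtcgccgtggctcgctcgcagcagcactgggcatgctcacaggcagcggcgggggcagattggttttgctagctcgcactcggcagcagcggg

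C1ql3 had 1 E-box, CAGCTG, and Dsp had 1, CAGGTG, both 85 to 80 bases before the start, and the C1ql2 and Stxbp6 windows had 0. An E-box was in 65.5% of 33469 RefSeq windows of the same length. The motif reads the same on both strands. C1ql3 also had a TATA box (TATAAA) 30 to 25 bases before the start, a motif found in 12.9% of windows on either strand. Dsp had 4 GC boxes (GGGCGG, both strands), a motif in 30.5% of windows, and the other 3 genes had 0. A short cAMP response element (TGACG, both strands) was in 18.2% of windows and in 0 of these 4. In these windows no motif searched was in both of the genes that fell or in both that rose. The G and C content was 68.8% for C1ql2, 54.0% for C1ql3, 75.2% for Dsp and 64.8% for Stxbp6, against a median of 51.2% over the windows.

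The depth of a DG library was between 14.9 and 21.8 M recovered reads, that of a CA1 library between 14.4 and 23.4 M and that of a CA3 library between 15.7 and 21.8 M. The lowest count of any of the 5 genes in any library was 31 reads. The animal numbers in the titles were split at 3400 into 2 runs. The first has 10 rats at 12 months and 6 at 5 months, and the second has 6 of each age. Within a run each age holds its own block of numbers. These blocks follow on directly in the first run, while a gap in the numbers parts them in the second. So within a run the block and the age cannot be told apart, and each age result is also given by run. Mitochondrially encoded genes took 6.35% to 9.94% of reads in 12-month DG libraries and 3.67% to 12.57% in 5-month DG libraries. The median share in CA1 was 11.2% at 12 months and 7.96% at 5 months. The 7 measured microglial markers summed to 33985 normalized counts in the CA1 library of 12-month rat 10 and to 24541 in its CA3 library, whereas every other library had at most 9739.

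All 5 genes were higher in the DG than in CA1 and in CA3 of the same rat, in 28 of 28 rats each. Levels were compared across subregions as reads per 1000000 recovered reads (RPM), since the authors scaled the 3 tables apart from each other, and they carry no test. Of 14340 genes compared between the DG and CA1, 5.66% were higher in the DG in every rat, and of 14378 compared with CA3, 8.07% were, while the median ratio over all genes was 1.009 and 1.008.

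Prox1, the fate factor, had 140, 201 and 257 RPM (lowest, median and highest library) in the DG, against 8.46, 35.3 and 112 RPM in CA1 and 20.3, 38.7 and 61.2 RPM in CA3. Every DG library was above every CA1 and CA3 library. The ratio within a rat had a median of 5.52 for the DG over CA1 (range 1.60 to 28.2) and 5.30 for the DG over CA3 (2.62 to 9.20), rank 23 and rank 26 of the genes compared.

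C1ql2 had 258, 392 and 504 RPM in the DG, against 1.97, 51.2 and 197 RPM in CA1 and 12.2, 41.9 and 113 RPM in CA3. It too was higher in every DG library than in any other library. Its median ratio was 6.95 over CA1 (1.53 to 190) and 9.99 over CA3 (2.29 to 29.1), which placed it 5th and 3rd among all genes compared.

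C1ql3, its close relative, had the same order of medians over the subregions, with a wider step from CA1 down to CA3. It had 63.5, 95.1 and 132 RPM in the DG, against 23.4, 44.1 and 83.4 RPM in CA1 and 4.03, 17.7 and 29.5 RPM in CA3. DG and CA1 libraries overlapped in range, while every DG library was above every CA3 library. The median ratio was 2.20 over CA1 (1.13 to 4.06, rank 295) and 6.36 over CA3 (2.16 to 18.5, rank 12). C1ql3 was the only one of the 5 genes in which CA1 stood above CA3 by more than the sum of their SDs, with 43.3 ± 11.6 RPM in CA1 and 15.3 ± 6.94 RPM in CA3 at 12 months (SD, n = 16 each), and 47.2 ± 16.0 RPM in CA1 and 18.9 ± 6.62 RPM in CA3 at 5 months (SD, n = 12 each).

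Dsp had 29.8, 51.7 and 73.3 RPM in the DG, against 2.83, 8.06 and 35.1 RPM in CA1 and 4.06, 8.67 and 18.4 RPM in CA3. Stxbp6 had 39.2, 56.0 and 68.3 RPM in the DG, against 6.16, 16.8 and 41.9 RPM in CA1 and 9.98, 16.3 and 24.5 RPM in CA3. For both genes the highest CA1 library reached into the DG range, and no CA3 library did. The median ratio of Dsp was 5.69 over CA1 (rank 18) and 5.44 over CA3 (rank 22), and that of Stxbp6 was 3.18 and 3.32 (rank 108 in both).

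Among the 6 combinations of subregion and age, the 2 DG groups were the highest for every gene, and the gap between them and the next group was larger than the sum of the 2 SDs. In RPM, Stxbp6 was the only gene whose DG groups were themselves separated by more than that sum. It had 59.6 ± 4.94 RPM at 12 months (n = 16) and 47.7 ± 6.29 RPM at 5 months (n = 12). In normalized counts its DG groups, 1024 ± 79.2 and 852 ± 96.5 (SD), differed by less than the sum of their SDs. Apart from the step of C1ql3 between CA1 and CA3, the 4 CA groups differed from their neighbours in the order by less than the sum of their SDs.

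**Figure D1:**
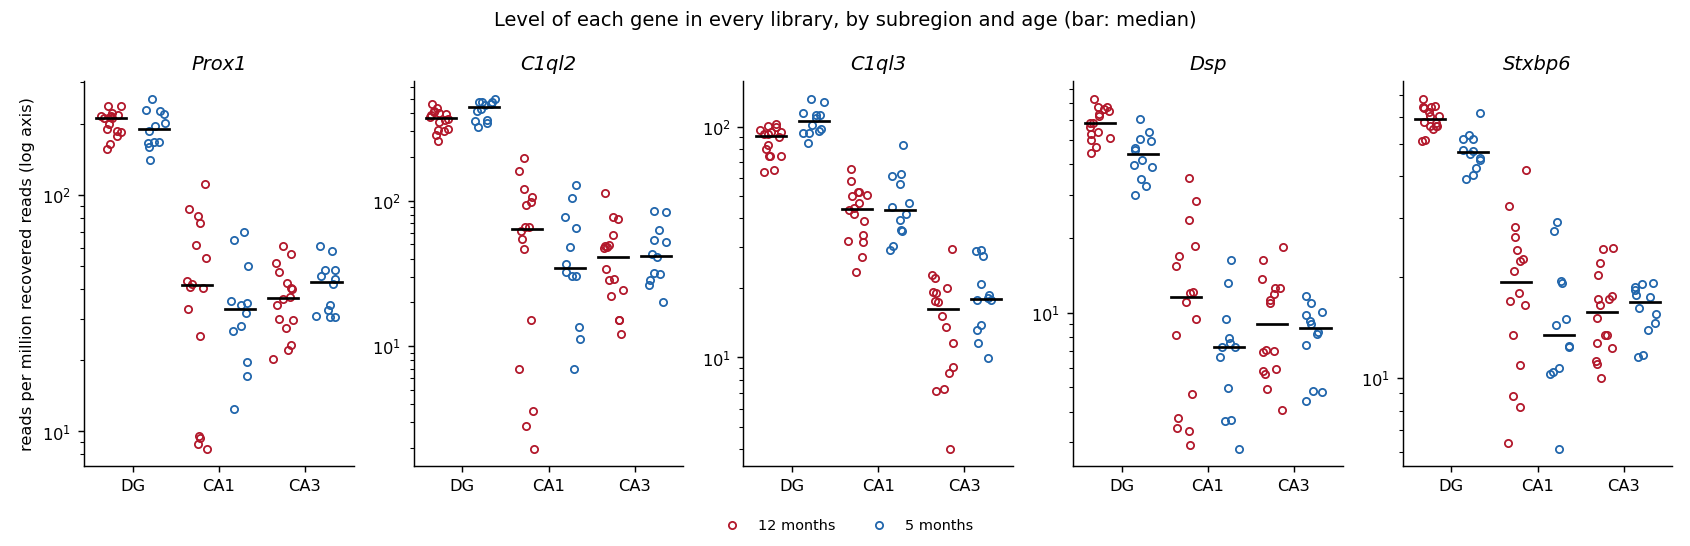
Reads per 1000000 recovered reads (log axis) of each gene in 84 libraries, by subregion, with 12-month rats in red left of 5-month rats in blue and the median as a bar. DG medians sit highest for all 5 genes, CA1 libraries spread widest for 4 of them, and C1ql3 is lowest in CA3.

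Each of the 5 genes spread more between libraries in CA1 and in CA3 than in the DG. In the DG the highest library exceeded the lowest by 1.64-fold for Prox1 and for Stxbp6, 2.23-fold for C1ql2, 2.39-fold for Dsp and 2.41-fold for C1ql3. In CA1 the same ratio was 101 for C1ql2, 12.7 for Prox1, 12.6 for Dsp, 6.44 for Stxbp6 and 3.20 for C1ql3. In CA3 it was 10.6 for C1ql2, 8.42 for C1ql3, 4.84 for Dsp, 3.05 for Prox1 and 2.49 for Stxbp6. C1ql3 was thus the least spread of the 5 genes in CA1 and the second most spread in CA3.

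The 4 CA1 libraries with the least Prox1, 151 to 166 normalized counts, and the 4 with the most, 1344 to 1927, were all from 12-month rats. C1ql2 was 33.7 to 121 in the lowest 4 and 1727 to 3398 in the highest 4, and Dsp was 50.1 to 71.9 and 273 to 616. C1ql3 was 447 to 597 and 768 to 1135, and Stxbp6 was 112 to 191 and 465 to 723. All these genes went with Prox1 from rat to rat in CA1, so a gap between sets taken by Prox1 is no separate result. The 15 other granule cell genes measured summed to 9202 to 10145 in the lowest 4 and 15725 to 19785 in the highest 4. The 7 measured CA1 pyramidal markers ran the other way, at 42805 to 54843 in the lowest 4 and 32099 to 39401 in the highest 4. CA3 pyramidal markers summed to 8140 to 11270 in the lowest 4 and 9893.5 to 18437 in the highest 4, with overlap. The lowest 4 include 12-month rat 10, the rat with the high microglial sum. These sets were taken by their Prox1 level and their values are a description. No gene of these lists was at 0 in any CA1 library.

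In the DG at 12 against 5 months, 4 of the 5 measured genes passed the test (limma on log2 of the normalized count plus 1, Benjamini-Hochberg adjusted p under 0.05 over 14526 genes). Over all genes, 37.1% passed, so a call is common in this comparison. Of the 4, 2 were higher at 12 months, where 18.5% of all genes were called, and 2 were lower, where 18.5% were called. Values in the next paragraphs are normalized counts in the DG, and changes are on the log2 scale, 12 minus 5 months, ± SE.

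Prox1 had 2677, 3625 and 4118 (lowest, median and highest) in 12-month rats, against 2805, 3402 and 4382 in 5-month rats. The groups overlapped almost entirely. The mean was 3496 ± 399 at 12 months (SD, n = 16) and 3447 ± 521 at 5 months (SD, n = 12), with a change of 0.03 ± 0.07 (limma adjusted p = 0.798). The 95% interval of the change was -0.12 to 0.17.

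C1ql2 had 4380, 6269 and 7936 in 12-month rats, against 5500, 8007 and 9775 in 5-month rats. All 16 older rats were below the median of the younger ones, and 5 were below all of them, though the ranges overlapped. C1ql2 fell by 0.28 ± 0.09 (0.824 times, limma adjusted p = 0.0203), with means of 6256 ± 1097 at 12 months and 7589 ± 1353 at 5 months (SD, n = 16 and 12).

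C1ql3 had 1080, 1558 and 1747 in 12-month rats, against 1484, 1868 and 2599 in 5-month rats. Again all 16 older rats were below the younger median, and 6 were below every younger rat. C1ql3 fell by 0.36 ± 0.09 (0.778 times, limma adjusted p = 0.00209), with means of 1485 ± 228 at 12 months and 1913 ± 339 at 5 months.

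Dsp had 752, 998 and 1245 in 12-month rats, against 521, 762 and 1033 in 5-month rats. Of the 16 older rats, 15 were above the younger median and 7 were above every younger rat. Dsp rose by 0.39 ± 0.10 (1.31-fold, limma adjusted p = 0.00319), with means of 1008 ± 144 at 12 months and 782 ± 178 at 5 months.

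Stxbp6 had 874, 1029 and 1161 in 12-month rats, against 706, 833 and 1095 in 5-month rats. All 16 older rats were above the younger median, and 3 were above every younger rat. A single younger rat reached 1095, and the other 11 were at most 910, below the older group's median. Stxbp6 rose by 0.27 ± 0.05 (1.204-fold, limma adjusted p = 0.00065), with means of 1024 ± 79.2 at 12 months and 852 ± 96.5 at 5 months.

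**Figure D2:**
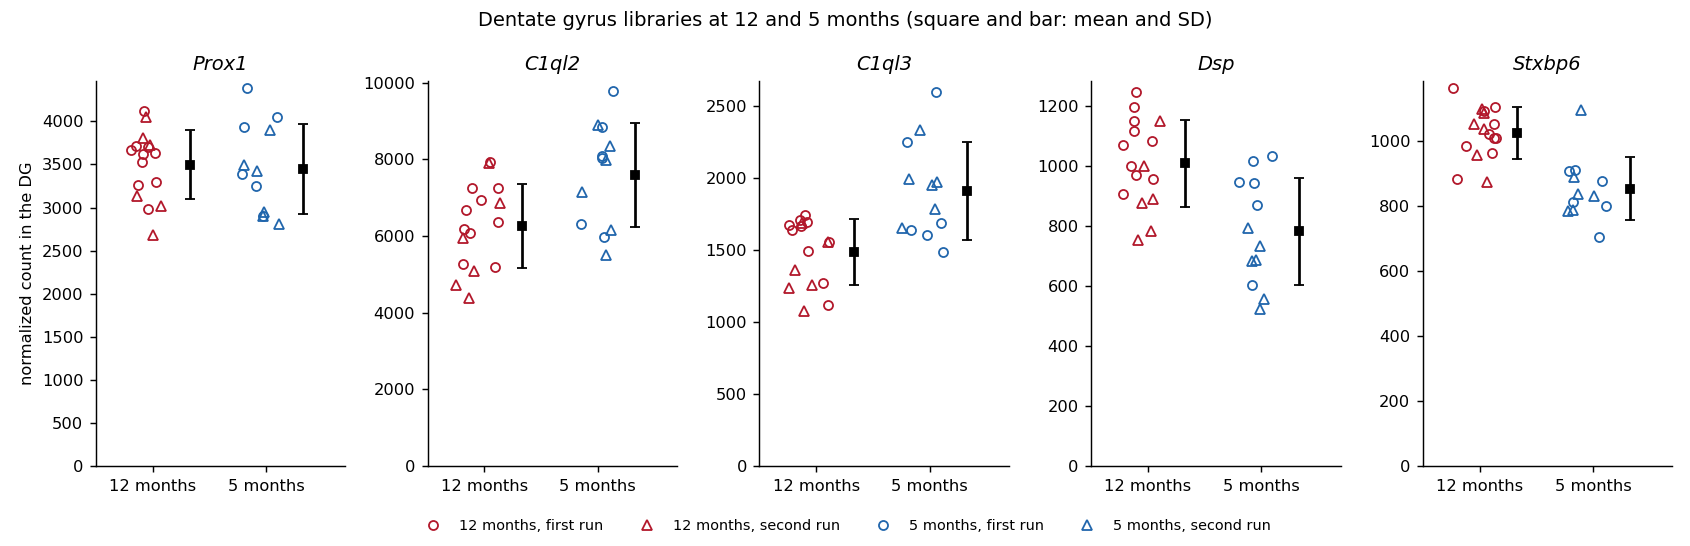
Normalized count of each gene in the 28 DG libraries, 12-month rats left of 5-month rats, circles for the first and triangles for the second run of animal numbers, square and bar for the mean and SD. C1ql2 and C1ql3 sit lower and Dsp and Stxbp6 higher at 12 months, with overlap between the ages for all 5 genes.

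All 4 changes were in the same direction in both runs, and Prox1 was near 0 in both. In the first run alone 0 of 5 genes passed, where 0.172% of all genes did, and an unadjusted limma p was under 0.05 for 4 of 5. In the second run alone, where a gap in the animal numbers parts the ages, 3 of 5 passed, where 46.9% of all genes did. The changes in the first and the second run were -0.26 ± 0.11 and -0.35 ± 0.14 for C1ql2 (limma adjusted p = 0.182 and 0.0522), and -0.25 ± 0.12 and -0.52 ± 0.10 for C1ql3 (0.219 and 0.000592). They were 0.26 ± 0.10 and 0.46 ± 0.11 for Dsp (0.165 and 0.00355), and 0.30 ± 0.07 and 0.23 ± 0.08 for Stxbp6 (0.0925 and 0.0310). Whether the runs differ in these changes was not tested. On recovered reads, edgeR called the same 4 of 5 genes, where 37.6% of all genes passed, and so did DESeq2, where 39.3% passed. Each of the 28 fits that left out 1 rat also called 4 of 5, where 32.4% to 42.4% of all genes passed, and without 12-month rat 10 the changes were -0.28 for C1ql2, -0.35 for C1ql3, 0.38 for Dsp and 0.27 for Stxbp6. With the mitochondrial share as a covariate, added after the data were seen, they were -0.28, -0.38, 0.34 and 0.27 in the same order. In a limma test of whether the fold exceeded 1.2, 0 of 5 passed, where 0.0826% of all genes did. That test asks more than an estimated fold above 1.2, so it does not show the changes to be smaller than that.

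Markers of other cells in the DG libraries were summed by list. The 9 measured CA3 pyramidal markers summed to 19270, 22645 and 28133 (lowest, median, highest) at 12 months and to 17528, 20976 and 27068 at 5 months. The 7 CA1 pyramidal markers summed to 2092, 5589 and 12640 at 12 months and to 2672, 6364 and 17289 at 5 months, and the 6 hilar mossy cell markers to 2858, 4021 and 4999 at 12 months and to 3081, 3783 and 4353 at 5 months. The ages overlapped in each sum, and no marker of these 3 lists was at 0 in any DG library. The CA3 and mossy cell lists are not specific to the cells they are named for. At 12 months the CA3 list had a median sum of 31450 in CA3 itself, and the mossy cell list had 3986 in CA3 and 2946 in CA1. Grik4 is in the CA3 list and also in the list of C1q-like partners below. These sums are therefore no measure of how many such cells a DG library held. Single markers in the DG are set beside all genes, of which 18.5% were called higher and 18.5% lower at 12 months. Of 7 CA1 pyramidal markers 0 were higher and 1 lower, with a median change of -0.43. Of 9 CA3 pyramidal markers 2 were higher and 3 lower, with a median of 0.12. Of 6 hilar mossy cell markers 2 were higher, Necab1 by 0.48 ± 0.11 and Calcrl by 0.35 ± 0.11, and 0 lower. The median over these 6 was -0.16, opposite in sign to the 2 named. Among glial and vascular lists, 1 of 8 astrocyte markers was higher and 2 were lower, Sox9 by -0.66 ± 0.11, with a median of 0.07. Of 8 oligodendrocyte markers 2 were higher, Ermn by 0.46 ± 0.09, and 0 lower, with a median of -0.03. Of 6 markers of oligodendrocyte precursors 1 was higher and 3 lower, Gpr17 by -0.73 ± 0.19 and Cspg4 by -0.44 ± 0.11. Their median was -0.12. Of 6 endothelial and mural markers 0 were higher and 2 lower, Cldn5 by -0.43 ± 0.10, with a median of -0.12. Of 7 microglial ones 1 was higher and 0 lower, with a median of 0.08. The part of these glial and vascular markers in the members' changes was not tested. With the mean of the other subregions' markers as a covariate, C1ql2 changed by -0.31, C1ql3 by -0.38, Dsp by 0.36 and Stxbp6 by 0.25, and these 4 passed with limma, where 35.7% of all genes did. That mean joins the CA1 and CA3 lists, whose median changes were opposite in sign (-0.43 and 0.12). It is therefore no measure of neighbouring tissue in a DG library, and the part of such tissue was not tested.

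The direction of the DG change went with the span of the gene over all genes. In 4 bins of equal size by genomic span, for the 89.0% of tested genes with a span in GRCr8, the median change was -0.10 in the shortest bin, then -0.03 and 0.04, and 0.09 in the longest. C1ql2 and C1ql3 were in the shortest bin, Prox1 and Dsp in the third and Stxbp6 in the longest. The part of span in the members' changes was not tested.

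In CA1, 0 of 5 genes passed, where 25.2% of all 14685 genes did, and in CA3, 0 of 5 passed, where 21.7% of 14893 did. An unadjusted p was under 0.05 for 0 of 5 genes with limma in either subregion. In CA1, 0 of 5 passed with edgeR, where 26.2% of all genes did, and 0 of 5 with DESeq2, where 28.6% did, with an unadjusted p under 0.05 for Dsp alone in each. In CA3, 0 of 5 passed with edgeR (21.8% of all genes) and 0 of 5 with DESeq2 (23.1%), with an unadjusted p under 0.05 for 0 of 5. The SEs of the changes ran from 0.14 to 0.64 in CA1 and from 0.13 to 0.29 in CA3, against 0.05 to 0.10 in the DG.

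In CA1, Prox1 had 151, 732 and 1927 normalized counts in 12-month rats, against 215, 596 and 1193 in 5-month rats, a change of 0.10 ± 0.37. C1ql2 had 33.7, 1112 and 3398 at 12 months, against 121, 627 and 2196 at 5 months, a change of -0.02 ± 0.64. For both genes the 12-month range enclosed the 5-month range at both ends. The change was -0.13 ± 0.14 for C1ql3 and 0.29 ± 0.24 for Stxbp6. Dsp, with 50.1, 204 and 616 at 12 months against 48.9, 135 and 281 at 5 months, had a difference of 0.54 ± 0.35 (limma adjusted p = 0.2498), and 5 of the 16 older rats were above every younger one. With 1 rat left out, C1ql2 in CA1 ran from -0.23 (without 5-month rat 11) to 0.26 (without 12-month rat 10), and Prox1 from -0.03 to 0.23 without the same rats. Dsp ran from 0.42 (without 12-month rat 3) to 0.66 (without 12-month rat 10), Stxbp6 from 0.18 (without 5-month rat 6) to 0.39 (without 12-month rat 13) and C1ql3 from -0.18 (without 5-month rat 5) to -0.05 (without 5-month rat 7). C1ql2 in CA1 was at 0.49 with edgeR and 0.48 with DESeq2, so its direction there depended on the tool and on which rats were included. Dsp passed in CA1 when libraries were weighted by their spread (array weights), at 0.86 (limma adjusted p = 0.0405), where 29.3% of all genes did. With the other granule cell genes as a covariate, a fit added after the data were seen in which 26.3% of all genes passed, Prox1 was at -0.27 and C1ql2 at -0.64 in CA1 and both passed.

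In CA3, Prox1 had 379, 677 and 1112 normalized counts in 12-month rats, against 567, 799 and 1154 in 5-month rats, a change of -0.21 ± 0.15. C1ql3 had 70.3, 307 and 591 at 12 months, against 193, 332 and 547 at 5 months, a change of -0.41 ± 0.24 (limma adjusted p = 0.213). The ages overlapped for both. The changes of C1ql2, Dsp and Stxbp6 in CA3 were -0.24 ± 0.29, 0.15 ± 0.21 and -0.05 ± 0.13.

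By run, 0 of 5 genes passed in CA1 in the first run, where 3.19% of all genes did, and 0 of 5 in the second, where 33.8% did. Prox1 was at 0.20 ± 0.43 in the first run, against -0.07 ± 0.57 in the later one, and C1ql2 at 0.18 ± 0.79 and -0.27 ± 0.94, so both differed in sign between the runs, with errors larger than the values. Dsp was at 0.62 ± 0.42 and 0.38 ± 0.52, C1ql3 at 0.12 ± 0.15 and -0.32 ± 0.17, and Stxbp6 at 0.57 ± 0.26 and 0.02 ± 0.38. Stxbp6 in the first run was the only one of these with an unadjusted limma p under 0.05. In CA3, 0 of 5 passed in the first run, where 4.83% of all genes did, and 0 of 5 in the second, where 16.5% did, with C1ql3 at -0.19 ± 0.26 and -0.69 ± 0.37.

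**Figure D3:**
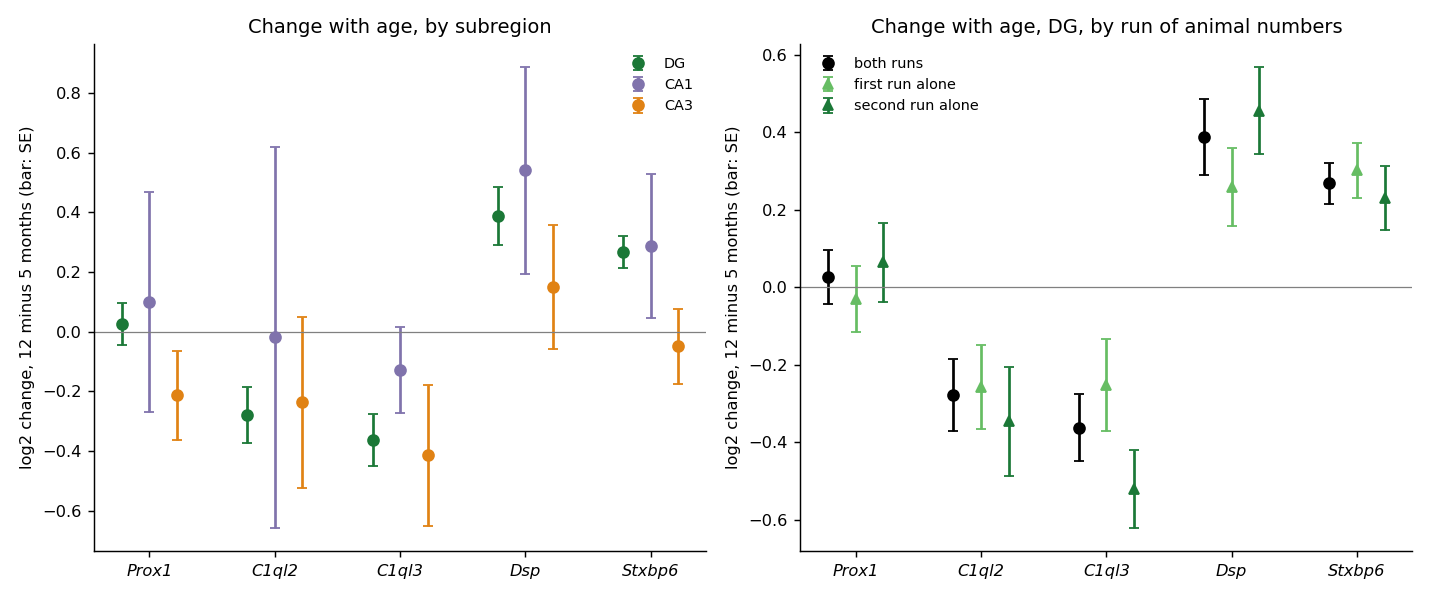
Change with age (log2, 12 minus 5 months, bar for the SE) of each gene, by subregion on the left and within the DG by run of animal numbers on the right. The DG values lie clear of 0 for every gene but Prox1, and the CA1 and CA3 bars are wider.

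The difference in age change between subregions was tested within rats. Between the DG and CA1, 0 of 5 genes passed, where 0.607% of 14340 genes did, and an unadjusted limma p was under 0.05 for 0 of 5. Between the DG and CA3, 0 of 5 passed, where 2.73% of 14378 genes did, and the unadjusted p was under 0.05 for Stxbp6 alone. The difference for Stxbp6, DG minus CA3, was 0.32 ± 0.15 with a 95% interval of 0.0032 to 0.63 (limma adjusted p = 0.239). By run, 0 of 5 passed between the DG and CA1 in the first (0.00697% of all genes) and in the second (0.132%), and 0 of 5 between the DG and CA3 in the first (0.00696%) and in the second (5.26%). For C1ql2 the interval was -2.20 to 1.69 against CA1 and -0.97 to 0.88 against CA3, and for C1ql3 it was -0.59 to 0.13 against CA1 and -0.54 to 0.64 against CA3. The calls in the DG are therefore not shown to be particular to the DG.

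The 5 genes were set against each other from rat to rat within each subregion. Relations were taken over 28 rats on deviations from each age's mean, 30 relations in all, with p values from 100000 permutations adjusted by Benjamini-Hochberg. In the DG, Pearson's r ran from 0.21 to 0.77 with a median of 0.38, and 5 of 10 pairs passed. The median was 0.87 in CA1 (0.69 to 0.97) and 0.87 in CA3 (0.74 to 0.94), and 10 of 10 pairs passed in each. Whether r differs between subregions was not tested.

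C1ql2 and C1ql3 were the closest pair in the DG (r = 0.767, rho = 0.747, permutation test, adjusted p = 1.67e-05, raw p = 1e-05, the smallest that 100000 permutations can give). Without the 2 rats farthest from the median of C1ql2, r was 0.724. Prox1 went with Dsp (r = 0.631, rho = 0.574, adjusted permutation p = 0.000491, 0.526 without 2 rats) and C1ql2 with Dsp (r = 0.592, rho = 0.526, adjusted permutation p = 0.00163, 0.471 without 2 rats). Over both runs together, C1ql2 and Dsp thus varied in the same direction between rats of an age, while their mean changes with age were opposite. By run, r was 0.672 in the first and 0.962 in the second for C1ql2 with C1ql3, 0.437 and 0.730 for Prox1 with Dsp, and 0.339 and 0.848 for C1ql2 with Dsp. Neither relation with Dsp passed in the first run (adjusted permutation p = 0.118 for Prox1 and 0.242 for C1ql2). Without 2 rats, r in that run was 0.655 for Prox1 with Dsp and -0.005 for C1ql2 with Dsp. C1ql3 with Dsp (r = 0.417) and Prox1 with C1ql2 (r = 0.397) also passed by Pearson's r, the last of these not by Spearman's rho (0.305, adjusted permutation p = 0.132). Prox1 with C1ql2 turned sign by run, at -0.222 in the first and 0.853 in the second, and did not pass on deviations from each age and run (r = 0.357, adjusted permutation p = 0.0695).

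Stxbp6 passed with none of the other 4 genes in the DG (r from 0.21 to 0.37) on deviations from each age, and passed with all 4 in CA1 and in CA3. On deviations from each age and run it passed in the DG with Prox1 (r = 0.432, adjusted permutation p = 0.0256) and with Dsp (r = 0.418, adjusted permutation p = 0.0312). In the second run alone it passed with Prox1 (r = 0.728) and C1ql3 (r = 0.660), and in the first run with Dsp (r = 0.528, adjusted permutation p = 0.0483).

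Fewer DG pairs passed in the first run, which has 16 rats, than in the second, which has 12. In the first run 2 of 10 DG pairs passed with a median r of 0.22, and in the second run 8 of 10 passed with a median of 0.73, while in CA1 and CA3 all 10 passed in each run. Whether the runs differ in r was not tested.

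**Figure D4:**
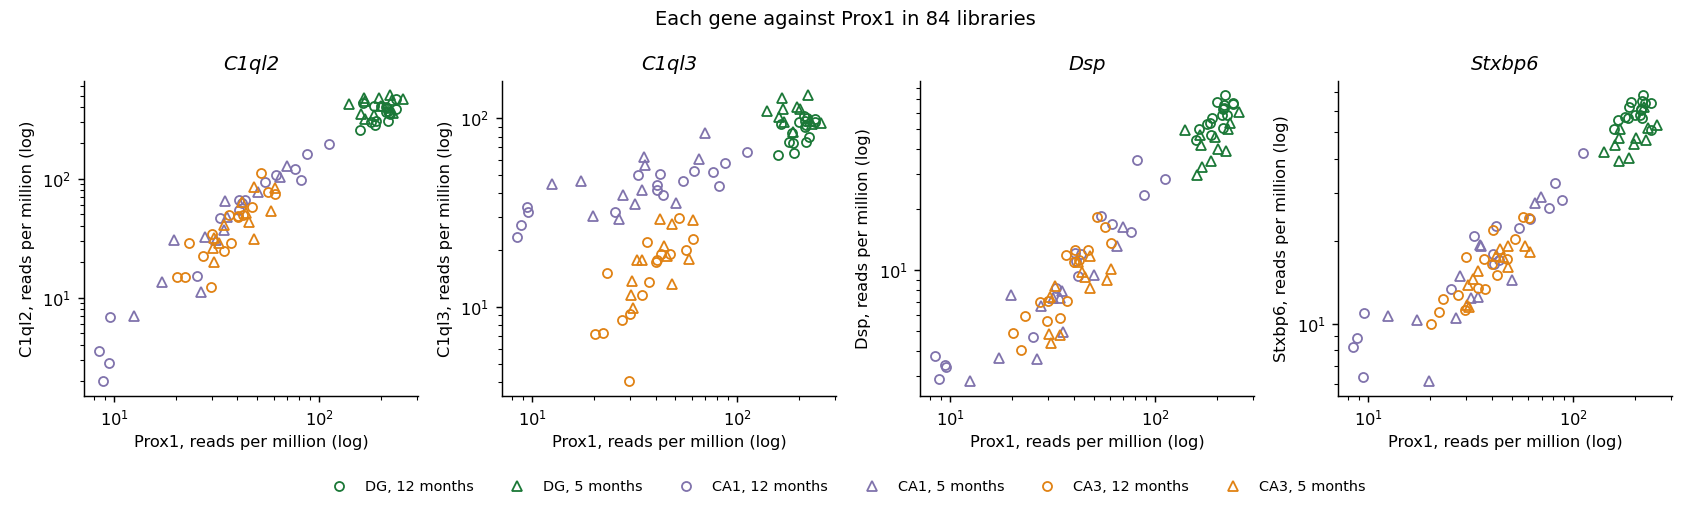
RPM, the reads per 1000000 recovered reads, of C1ql2, C1ql3, Dsp and Stxbp6 against Prox1 (log axes) in 84 libraries, coloured by subregion, circles for 12-month and triangles for 5-month rats. CA1 and CA3 points overlap for C1ql2, Dsp and Stxbp6, while C1ql3 lies higher in CA1 than in CA3 at the same Prox1.

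The ratio of C1ql3 to Prox1 set CA1 apart from the other subregions. Its lowest, median and highest values were 0.34, 0.45 and 0.78 in the DG, against 0.54, 1.202 and 3.62 in CA1 and 0.14, 0.41 and 0.69 in CA3. The ratio of Dsp to Prox1 was 0.18, 0.28 and 0.35 in the DG, against 0.14, 0.24 and 0.44 in CA1 and 0.14, 0.24 and 0.36 in CA3. Over both ages together, the median of Dsp to Prox1 was thus nearly the same in all 3 subregions, and that of C1ql3 to Prox1 was not. Within the DG, Dsp rose with age by 0.39 and Prox1 changed by 0.03, so the proportion of Dsp there was not the same at both ages. For C1ql2 over Prox1 the median was 1.86 in the DG, against 1.39 in CA1 and 1.16 in CA3. For Stxbp6 over Prox1 the median was 0.28 in the DG, against 0.42 in CA1 and 0.40 in CA3.

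Of 15 other granule cell genes tested in the DG, 3 were higher and 4 lower at 12 months, a share near that of all genes (18.5% in each direction), with a median change of 0.00 against 0.01 over all genes. Neurod2, a basic helix-loop-helix factor of maturing neurons, fell by 0.34 ± 0.08, Il16, which encodes a cytokine precursor, by 0.32 ± 0.07, and Fam163b by 0.32 ± 0.08, while Trpc6, a cation channel, rose by 0.32 ± 0.08. In CA1, where 12.4% of all genes were called higher and 12.8% lower, 2 of the 15 were higher and 0 lower. In CA3, where 10.9% were called higher and 10.8% lower, 0 of 15 passed. The same shares of all genes apply to the CA1 and CA3 counts of each list below. Their median ratio within rats ran from 0.737 (Pter) to 6.67 (Plk5, a polo-like kinase) for the DG over CA1, and from 1.08 (Il16) to 6.78 (Plk5) for the DG over CA3.

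Among the relatives and synaptic partners of the C1q-like proteins, 1 of 11 was higher and 3 were lower in the DG. The median change was -0.08, and 18.5% of all genes were called in each direction. C1ql1, a further C1q-like secreted protein, had 209 ± 41.1 normalized counts at 12 months and 339 ± 74.0 at 5 months (SD, n = 16 and 12) and fell by 0.69 ± 0.11 (limma adjusted p = 0.000119). C1ql1, C1ql2 and C1ql3 thus all fell in the DG, and C1ql1 also fell in CA1, by 0.35 ± 0.09, and in CA3, by 0.22 ± 0.07. Nrxn2, a presynaptic neurexin, fell by 0.51 ± 0.09, Grik4, a kainate receptor subunit, fell by 0.16 ± 0.06, and Grik2, another subunit, rose by 0.31 ± 0.09. C1ql1 was not higher in the DG, with a median ratio of 0.791 over CA1 and 0.832 over CA3. In CA1 0 were higher and 3 lower of 11, and in CA3 0 were higher and 2 lower.

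Among desmosome and plakin genes, 2 of 8 were higher and 2 lower in the DG, with a median of -0.05. Of all genes, 18.5% were called in each direction there. Dst and Macf1, both giant plakins that link the cytoskeleton, rose by 0.35 ± 0.07 and 0.31 ± 0.08, while Jup, the plakoglobin of desmosomes, fell by 0.42 ± 0.09 and Plec, the plakin plectin, by 0.27 ± 0.08. The DG level was 5.60 times that in CA1 and 5.91 times that in CA3 for Perp, a desmosomal membrane protein, whose age difference in the DG was -0.01 ± 0.10. It was below that in both for Jup (0.841 and 0.732), Pkp4 (0.638 and 0.558), Dst (0.936 and 0.817) and Macf1 (0.918 and 0.7998). In CA1 0 of 7 were higher and 2 lower, and in CA3 0 of 9 were higher and 1 lower.

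Of the tryptophan and kynurenine genes, the pathway of Tdo2, 2 of 6 were higher and 1 lower in the DG. The median was -0.06, and 18.5% of all genes were called in each direction. Aadat, which converts kynurenine to kynurenic acid, rose by 0.53 ± 0.10 and Kyat3, also a kynurenine aminotransferase, by 0.24 ± 0.09. Tph2, the enzyme of serotonin synthesis in neurons, fell by 0.55 ± 0.19 and was low throughout, with 15.4 ± 5.38 normalized counts at 12 months and 22.5 ± 6.46 at 5 months. In CA1 and in CA3, 1 of 6 was higher, Aadat in both, and 0 lower.

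Of the vesicle fusion genes around amisyn, 4 of 11 were higher and 2 lower in the DG, with a median of 0.06. Of all genes, 18.5% were called in each direction there. Stxbp3, a Munc18 protein, rose by 0.47 ± 0.09, Stxbp5l, a tomosyn that like amisyn competes for syntaxin, by 0.45 ± 0.09, and Snap25, a SNARE of the plasma membrane, by 0.25 ± 0.07. Vamp2, the SNARE of the vesicle, fell by 0.24 ± 0.07. In CA1 2 of 11 were higher and 0 lower, and in CA3 1 was higher and 3 lower.

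Of 8 genes of immature granule neurons and progenitors tested in the DG, 0 were higher and 3 lower, where 18.5% of all genes were called lower, with a median of -0.24. They were not higher in the DG than in CA3, with a median ratio of DG over CA3 of 0.898 for Tubb3, 0.852 for Sox11, 0.412 for Igfbpl1 and 0.553 for Dcx. Tubb3, a neuronal tubulin, fell by 0.38 ± 0.08, Sox11, a factor of newborn neurons, by 0.72 ± 0.17, and Igfbpl1 by 0.74 ± 0.19, the last of these with 11.8 ± 3.69 normalized counts at 12 months and 20.7 ± 7.63 at 5 months. Dcx, the standard label of newborn neurons, had a difference of -0.02 ± 0.10 (limma adjusted p = 0.925). In CA1 1 of 8 was higher and 3 lower, and in CA3 0 of 10 were higher and 2 lower.

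The genes with the pattern most like each of the 5 were taken by Pearson's r on log2 of RPM plus 1 over 84 libraries and 14291 genes, as a description only, since the libraries fall into a DG set and a CA set and the same rat gives 3 of them. For Prox1 these were Piezo2 (0.983), Mgam (0.981) and Tiam1 (0.979), and for C1ql2 they were Tiam1, Pdyn and Prox1 (0.974 each). For C1ql3 they were Gabrd (0.972), Efnb3 (0.965) and Kcnj4 (0.964). For Dsp they were Mgam (0.972), Perp (0.970) and Prox1 (0.966), and for Stxbp6 they were Lrp12 and Ahcyl2 (0.971 each) and Arg1 (0.967). Prox1 was thus among the closest 3 of C1ql2 and Dsp, and C1ql3 and Stxbp6 shared no gene with the others. Within the 28 DG libraries, after removing each age's mean, the mean of the 5 genes went most closely with Plpp4 (0.847), Foxo1 (0.800), Tmem164 (0.780), Smad3 (0.768) and Zfp423 (0.767).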

How the data were processed

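PolyA RNA from the DG, CA1 and CA3 of each rat was sequenced with an Ion Total RNA-seq kit, per the labels' protocols. The deposited values are a signal, normalized counts per gene, in 1 table per subregion. Per the submitters' processing notes, the tools included Partek, STAR 2.5.3a and DESeq2 3.5, with build rn6. The sources used here do not say which annotation, gene filter or strand setting was used, so overlapping and antisense genes cannot be told apart. Whole reads, and so the depth, were recovered from the size of 1 read in each library, and 100% of values up to 1000 reads came out whole within 0.1 read. The edgeR quasi-likelihood test on them called 5468 genes in the DG and DESeq2 called 5712, against 5382 with limma.

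Genes reaching 10 in 12 or more of a subregion's 28 libraries entered the test, on log2(value + 1), with limma 3.58.1 (trend, 2-sided) in R 4.3.3, within 1 table at a time, and adjusted by Benjamini-Hochberg. Fold changes are on that scale and understate low genes. Differences between subregions were taken within rats, paired by the animal number in the titles. The fits were tested on simulated data. Alternatives used edgeR 4.0.16 and DESeq2 1.42.0, and the closing section gives the others. Spans were looked up and the mitochondrial share, the other granule cell genes and the Prox1 extremes were examined after the data were seen. The members and lists were chosen with earlier results of these data known. Named genes are the members, up to 4 per list with the smallest p in the DG, the 3 most like each member and the 5 most like their mean. Perp, Plk5, Pter, Pkp4, Dcx and the single markers of other cells were added after their values were seen. A planned 45 relations became 30, as 5 genes were measured. Separate rats are replicates, each with 1 library per subregion, and p-values measure the spread between rats.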

Additional observations from a re-analysis of the deposited data

How the results depend on the processing

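The count of 4 of 5 genes called in the DG stayed at 4 in all 28 fits that left out 1 rat (4 to 4), where 32.4% to 42.4% of all genes passed. The counts of 0 in CA1, CA3, DG minus CA1 and DG minus CA3 stayed at 0 (0 to 0). Of all genes, 19.5% to 29.1% passed in these CA1 fits and 17.8% to 22.9% in those of CA3. For DG minus CA1 the share was 0.119% to 2.61%, and for DG minus CA3 0.8% to 6.23%. With so few genes passing, the counts of 0 in the last 2 are no result about these 5 genes. The DG count was 0 with the first run of animal numbers alone, where 0.172% of all genes passed. It was also 0 in the limma test of whether the fold exceeded 1.2, where 0.0826% of all genes passed. The CA1 count was 1 with array weights (Dsp, 0.86, limma adjusted p = 0.0405). It was 2 with the mean of the other granule cell genes as a covariate, chosen after seeing the data, where Prox1 had a change of -0.27 (adjusted p = 0.0301) against 0.10 without it, and C1ql2 -0.64 (0.0277). In the DG, C1ql2 lost its call under quantile normalization (-0.18, limma adjusted p = 0.0722) and in the second run alone (-0.35, 0.0522), and with 1 rat left out at a time it ran from -0.32 to -0.24. The cause was not tested in any of these. The sign of a change turned for 32 values of single genes, all of genes that were not called without the alternative. In the DG, Prox1 was at -0.030 in the first run and -0.0030 with the markers of the other subregions as a covariate. In CA1, C1ql2, at -0.02, was at 0.18 in the first run, 0.58 with array weights, 0.49 with edgeR, 0.48 with DESeq2 and 0.61 with the mitochondrial share. C1ql3 in CA1 was at 0.12 in the first run and 0.18 with the mitochondrial share, and Prox1 in CA1 at -0.068 in the second run and -0.22 with the markers. In CA3, C1ql2 was at 0.031 in the first run, Stxbp6 at 0.067 in the first run, 0.0061 with the markers and 0.024 with the other granule cell genes, and Dsp at -0.038 with the mitochondrial share. For DG minus CA1, quantile normalization gave 0.017 for Prox1 and 0.019 for Stxbp6, the second run 0.13 for Prox1, 0.072 for Dsp and 0.21 for Stxbp6, and array weights 0.049 for Stxbp6. For DG minus CA3, C1ql2 was at 0.063 under quantile normalization and 0.19 in the second run, and C1ql3 at -0.064 in the first run. With 1 rat left out at a time, the changes that took both signs were C1ql2 (-0.23 to 0.26) and Prox1 (-0.026 to 0.23) in CA1, Prox1 (-0.22 to 0.053) and Stxbp6 (-0.12 to 0.088) in DG minus CA1, and C1ql2 (-0.16 to 0.11) and C1ql3 (-0.056 to 0.16) in DG minus CA3. Another 401 values of single genes kept their direction and side of the threshold, and 218 values that answer a comparison stayed within their limits. The alternatives also included pseudocounts of 0.5 and 5, no filter, TMM and the run as a covariate. Counts of all genes called moved more, to 727 in CA1 and 2048 in CA3 with the mitochondrial share as a covariate, against 3700 and 3231 without it. With the first run alone they came to 25 for DG, 468 for CA1 and 719 for CA3, and in the test of a fold above 1.2 to 12, 6 and 10. For DG minus CA1, 87 genes passed, against 165 with a minimum of 50, 264 with the run as a covariate, 1 and 19 in single runs, 568 with array weights, 8 without the block, 164 with a random block and 17 (without 5-month rat 11 and also without 5-month rat 5) to 374 (without 12-month rat 3) with 1 rat left out. For DG minus CA3, 393 passed, against 1 and 757 in single runs, 959 with array weights, 171 without the block and 115 (without 5-month rat 11) to 896 (without 5-month rat 2) with 1 rat left out. For the pairing by rat, the fit without a replicate block gave Stxbp6 the same difference, 0.32 ± 0.14 in DG minus CA3 (limma adjusted p = 0.218), and the rat as a random block 0.32 ± 0.13 (0.155), so the block changed no call of these genes. Ratios of the DG over CA1 and CA3 were above 1 in 28 of 28 rats on all 3 scales tried and within each age.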
